A study of Mus musculus with 5 samples.

Results

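AP-1 and EGR immediate early factors were read in sorted mouse brain dendritic cells (DCs) and bone marrow monocytes, through every array probe set annotated to exactly 1 gene symbol among Egr1, Egr2, Egr3, Fos, Fosb, Jun, Junb, Jund, Atf3 and Ier2. The rule gave 14 of the 45037 probe sets tested: 6 genes were read by 1 probe set and 4 genes (Egr2, Egr3, Jun and Jund) by 2. Brain DCs (2 arrays) were sorted as Lin-CD45hiCD11c+ from C57BL/6 mice that carried a B16-Flt3L tumour under the skin, started 12 days before the organs were taken. B16 is a melanoma line, here making Flt3 ligand, a growth factor that expands dendritic cells. Monocytes (3 arrays) were sorted as SSCloCD11bhi CD115+, that is, with low side scatter, much CD11b and CD115, from bone marrow of C57BL/6 mice, for which the labels give no treatment. All 5 samples are labelled female and 6 to 8 weeks old. Cell type, tissue and tumour therefore differed together and cannot be told apart. The labels do not say whether samples came from separate or pooled animals, so p-values reflect only how far these samples scatter, which may be technical. A difference in bulk RNA can come from fewer cells that express a gene or from less RNA per cell, and these cannot be told apart.

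Immediate early genes are switched on when signals activate factors already present in the cell, such as SRF and CREB, without new protein synthesis. FOS and JUN proteins pair through leucine zippers to form AP-1, which binds DNA, whereas EGR proteins bind GC-rich DNA through zinc fingers. In myeloid cells these factors follow growth factor, adhesion and microbial signals, and their transcripts are also known to rise while tissue is dissociated.

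RefSeq promoter windows (assembly GRCm38.p6, 250 bases before to 50 after a start) were available for 7 of the 10 genes, as 11 windows. Egr1, Egr3 and Ier2 had none, and sequence outside the windows was not searched. The 4 windows below are shown because Egr2, Fosb and Junb were higher in brain DCs while Fos was not called. Capitals mark letters that matched a searched motif on either strand, and positions count from the RefSeq start as 1.
Egr2 (chr10:67537619-67537918, plus strand): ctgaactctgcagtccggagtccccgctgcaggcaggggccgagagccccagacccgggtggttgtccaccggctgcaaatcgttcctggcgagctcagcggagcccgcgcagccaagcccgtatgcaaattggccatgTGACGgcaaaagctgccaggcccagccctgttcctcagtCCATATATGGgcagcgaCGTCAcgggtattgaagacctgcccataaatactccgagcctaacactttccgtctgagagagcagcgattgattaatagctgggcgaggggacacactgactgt
Fosb (chr7:19309996-19310295, minus strand): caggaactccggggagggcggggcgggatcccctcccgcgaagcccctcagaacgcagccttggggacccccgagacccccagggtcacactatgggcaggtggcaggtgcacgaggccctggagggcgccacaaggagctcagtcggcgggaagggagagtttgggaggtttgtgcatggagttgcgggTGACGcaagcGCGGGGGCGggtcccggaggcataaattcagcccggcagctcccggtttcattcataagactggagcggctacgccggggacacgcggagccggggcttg
Junb (chr8:84978699-84978998, minus strand): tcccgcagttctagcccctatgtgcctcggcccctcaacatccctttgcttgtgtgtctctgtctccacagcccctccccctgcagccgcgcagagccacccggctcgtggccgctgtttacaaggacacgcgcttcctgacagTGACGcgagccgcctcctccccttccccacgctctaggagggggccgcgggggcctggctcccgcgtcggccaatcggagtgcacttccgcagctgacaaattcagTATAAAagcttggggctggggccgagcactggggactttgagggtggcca
Fos (chr12:85473640-85473939, plus strand): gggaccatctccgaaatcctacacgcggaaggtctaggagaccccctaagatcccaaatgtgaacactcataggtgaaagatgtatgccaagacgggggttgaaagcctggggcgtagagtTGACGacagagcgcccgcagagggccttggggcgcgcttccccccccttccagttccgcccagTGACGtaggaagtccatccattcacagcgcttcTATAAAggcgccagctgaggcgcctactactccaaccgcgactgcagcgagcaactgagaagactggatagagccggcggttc

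The motifs searched were the CArG box, which SRF binds, the cyclic AMP response element TGACGTCA and its core TGACG, the AP-1 site TGANTCA, the EGR site GCGNGGGCG and the TATA box TATAAA. The core also counts where it lies inside the full element. A CArG box lay in windows of 1 of the 7 genes, Egr2, at -72 to -63 in the window printed, where 1.63% of all 32851 windows held one. The Egr2 windows that start at 67537619, 67537620 and 67537680 overlap and share that box, CCATATATGG. Another Egr2 window, chr10:67537316-67537615, lies apart from them and held a different box, CCTTTTTTGG. The number of windows is therefore not a number of sites. The core TGACG was held by 7 of the 11 windows, where 20.8% of all windows held it. These windows came from 5 of the 7 genes: Atf3, Fosb, Junb, Fos and, with overlapping windows, Egr2. A share per gene was not computed over all genes. An EGR match lay at -50 to -42 in Fosb (5.55% of all windows) and a TATA box in Fos and Junb (13.6%). The full cyclic AMP element (1.79%) and the AP-1 site (7.81%) matched in 0 of the 11 windows, and the Jun and Jund windows held none of the 6 motifs. Fos, the gene that was not called, and the called genes Fosb, Junb, Atf3 and Egr2 share the core TGACG in these windows. Whether matches relate to the calls was not tested. A match describes letters only, and a motif without a match here may lie outside the windows.

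Values were log2 RMA values relative to an unstated baseline of each probe set, so 0 means that baseline and not absence. Differences were brain DC minus monocyte on the log2 scale, tested with limma across all probe sets (n = 2 brain DC and 3 monocyte arrays), and a call means a Benjamini-Hochberg adjusted p below 0.05. Of the 14 member probe sets 13 were called higher in brain DCs, 0 lower and 1 was not called, where 12.2% of all probe sets were called higher and 15.5% lower (27.7% in either direction). The groups did not overlap in any of the 14, with brain DCs higher in 13 and lower in 1, where 30.6% of all probe sets had groups without overlap and brain DCs higher, and 24.8% lower (55.4% in either direction). The 13 probe sets cover 9 of the 10 genes, and Fos was the exception. The median difference was 2.55 over the members and 0.06 over all probe sets, and 10 member probe sets were called and at least 1 higher, against 6.13% of all (10.1% were at least 1 lower). Monocyte values lay below the baseline on average in 13 of the 14, while brain DC values lay above it in 12. The same share over all probe sets was not computed, so this describes only positions against an unstated baseline.

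**Figure D1:**
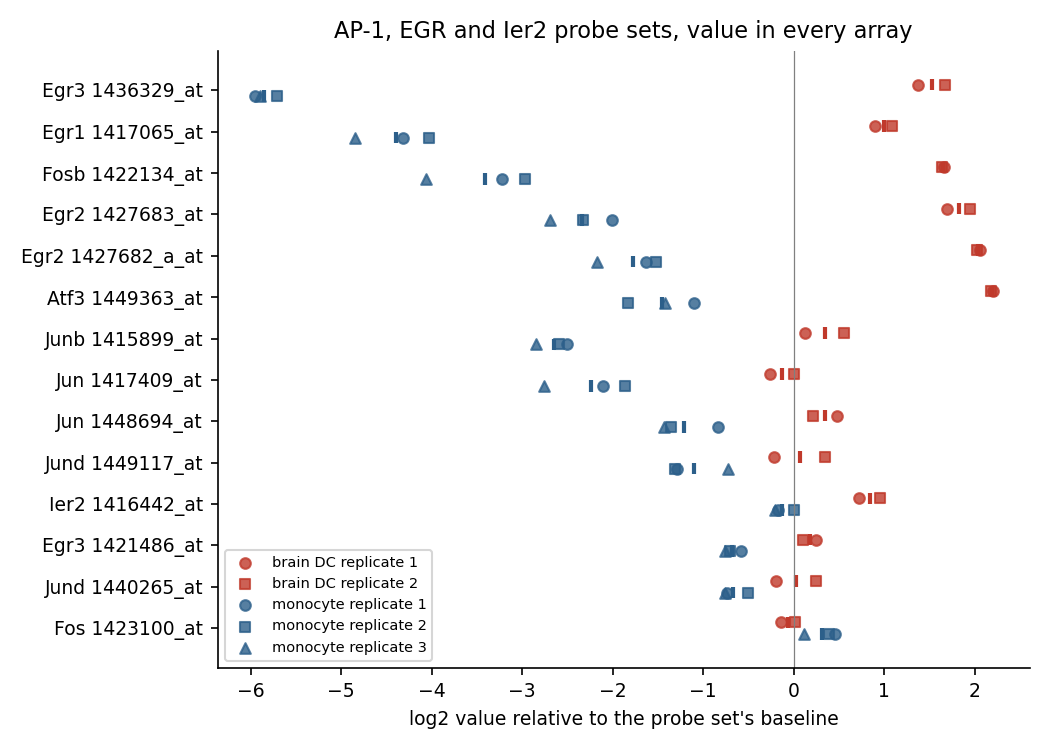
Log2 value of each of the 14 probe sets relative to its baseline (x axis), by array (brain DC in red, monocytes in blue, symbols give the replicate, ticks the group means). Brain DC arrays lie right of every monocyte array in 13 rows, and left of them for Fos; the rows are in order of the difference, with Egr3 at 7.38 on top.

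Among the EGR zinc finger factors, the size of the difference varied with the gene and the probe set. Egr3, an early factor that in lymphocytes restrains activation, was read at 1.38 and 1.67 in brain DC replicates 1 and 2, against -5.96, -5.70 and -5.90 in monocyte replicates 1, 2 and 3 by probe set 1436329_at. Both groups were tight and lay far apart, and the difference was 7.38 ± 0.17 (SE, 166.5-fold, limma adjusted p = 1.75e-06), the rank 9 highest of 45037. After quantile normalisation that difference was 6.48 (limma adjusted p = 2.85e-06). The other Egr3 probe set, 1421486_at, gave 0.25 and 0.10 in brain DCs, against -0.58, -0.70 and -0.76 in monocytes. It separated the groups in the same direction by only 0.86 ± 0.15 (limma adjusted p = 0.00511), so the size of the Egr3 difference depended on the probe set read.

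Egr1, the prototype of the family and a mediator of growth factor signals, stood at 0.90 and 1.09 in brain DCs, against -4.31, -4.03 and -4.84 in monocytes. The groups did not overlap, and monocyte replicate 3 was the lowest array. The difference was 5.39 ± 0.25 (42.0-fold, limma adjusted p = 1.53e-05), at rank 55. Egr2, which is needed for peripheral nerve myelination and is induced in activated lymphocytes and macrophages, had concordant probe sets. Probe set 1427683_at read 1.70 and 1.95 in brain DCs, against -2.01, -2.32 and -2.69 in monocytes (4.16 ± 0.22, limma adjusted p = 2.93e-05). Probe set 1427682_a_at read 2.05 and 2.02 in brain DCs, against -1.63, -1.52 and -2.17 in monocytes (3.81 ± 0.22, limma adjusted p = 3.75e-05). All 5 EGR probe sets were therefore higher in both brain DC arrays than in any monocyte array.

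The FOS subunits diverged. Fosb, which encodes an AP-1 subunit that must pair with a JUN protein, read 1.66 and 1.64 in brain DCs, against -3.22, -2.97 and -4.06 in monocytes. The brain DC arrays were almost equal, monocyte replicate 3 was the lowest array, and the difference was 5.06 ± 0.31 (33.4-fold, limma adjusted p = 4.89e-05). Fos, the founding member of the family, read -0.14 and 0.02 in brain DCs, against 0.45, 0.39 and 0.11 in monocytes. Its groups did not overlap either, but monocytes were the higher ones and the gap was small: -0.38 ± 0.17, with a 95% interval from -0.78 to 0.02 (limma adjusted p = 0.144). Signal levels are lost by the centring, so whether the Fos probe set was near its upper limit could not be checked.

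The contrast within the family was set out array by array. Fosb minus Fos was 1.80 and 1.62 in brain DCs, against -3.67, -3.36 and -4.17 in monocytes, a difference of 5.44. Egr1 minus Fos differed by 5.78 between the groups. With 2 arrays against 3, the smallest p of an exact permutation test (two-sided) is 0.1, and both pairs reached it (exact p = 0.1, adjusted p = 0.143 over the 10 pairs compared). No pair could pass the threshold in this design.

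**Figure D2:**
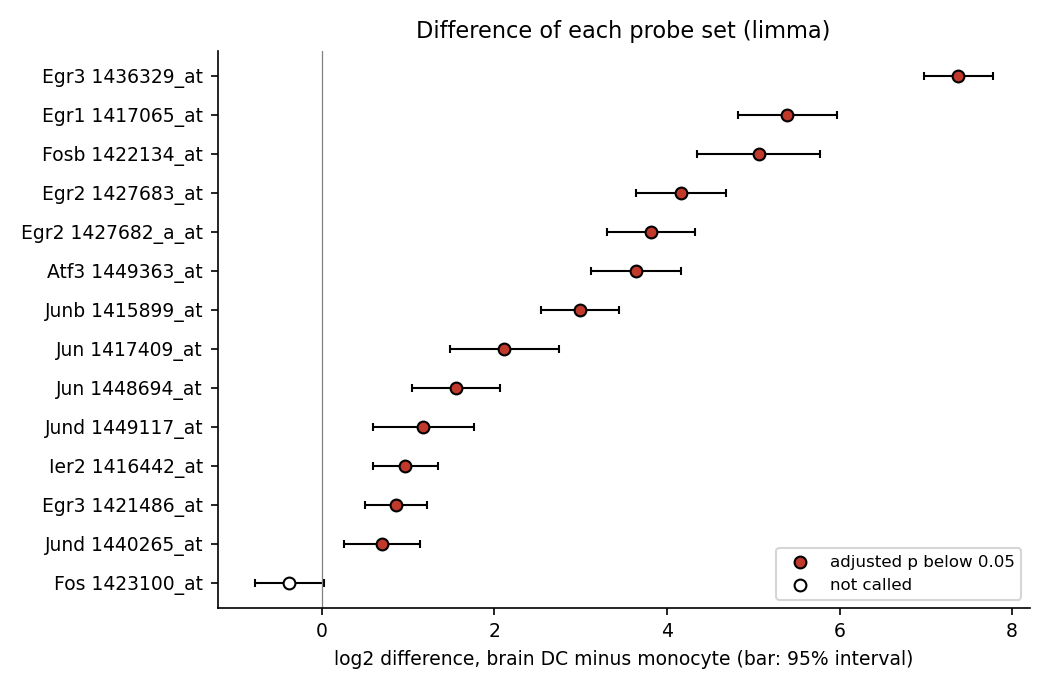
Log2 difference of each probe set, brain DC minus monocyte, with its 95% interval from limma (filled, adjusted p below 0.05; open, not called). Egr3 shows 7.38 and 0.86 by its separate probe sets, and Fos is the only interval, from -0.78 to 0.02, that includes 0.

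JUN subunits were graded. Junb, a subunit that often opposes JUN, read 0.13 and 0.56 in brain DCs, against -2.51, -2.60 and -2.85 in monocytes. The groups stood well apart (2.99 ± 0.19, 7.97-fold, limma adjusted p = 6.80e-05). Jun, the founding JUN subunit, read -0.26 and 0.01 in brain DCs, against -2.10, -1.86 and -2.76 in monocytes by probe set 1417409_at (2.11 ± 0.27, limma adjusted p = 0.00123). By 1448694_at it read 0.48 and 0.22 in brain DCs, against -0.84, -1.36 and -1.43 in monocytes (1.56 ± 0.22, limma adjusted p = 0.00182). Both Jun probe sets thus separated the groups without overlap and by similar amounts.

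Jund, the JUN subunit that is made more steadily and is least inducible, had the smallest JUN differences. Probe set 1449117_at read -0.21 and 0.35 in brain DCs, against -1.29, -1.31 and -0.72 in monocytes (1.17 ± 0.25, limma adjusted p = 0.0113). Probe set 1440265_at read -0.19 and 0.25 in brain DCs, against -0.73, -0.51 and -0.75 in monocytes (0.69 ± 0.19, limma adjusted p = 0.0298). Brain DC replicate 1 lay nearer the monocytes in both. Without brain DC replicate 2 neither Jund probe set was called (0.89, limma adjusted p = 0.0592, and 0.47, limma adjusted p = 0.141). The second also lost its call without monocyte replicate 1 (limma adjusted p = 0.0966) or 3 (limma adjusted p = 0.0822). Junb minus Jun differed between the groups by 0.88 or 1.44, according to the Jun probe set (exact permutation p = 0.1 for each, adjusted p = 0.143 over the 10 pairs).

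Atf3, a factor of the ATF/CREB family that pairs with JUN proteins and restrains inflammatory genes, was read at 2.20 and 2.18 in brain DCs, against -1.10, -1.83 and -1.42 in monocytes. The brain DC arrays were almost equal, and the difference was 3.64 ± 0.22 (12.5-fold, limma adjusted p = 5.42e-05). Ier2, a nuclear protein induced with these factors that is not an AP-1 or EGR subunit, read 0.72 and 0.95 in brain DCs, against -0.17, 0.00 and -0.21 in monocytes. Monocytes stayed near the Ier2 baseline, unlike most members, and the difference was 0.96 ± 0.16 (1.95-fold, limma adjusted p = 0.00391).

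In order of the differences, Egr3 by 1436329_at exceeded Egr1 by more than 2 combined SE. Egr1 and Fosb did not differ from each other beyond that spread, nor did the Egr2 probe sets and Atf3. Gaps of more than 2 combined SE also lay between Fosb and Egr2, Atf3 and Junb, Junb and Jun, and Jund and Fos. Thus 5 of the 13 neighbouring gaps passed. From Jun by 1417409_at down to Jund by 1440265_at, no neighbouring gap passed. The combined SE takes probe sets as independent although they share the 5 arrays, and the order comes from the same values. These gaps describe the order and are not a test. Of the members 3 lay among the 100 highest differences and 8 among the 1000 highest.

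**Figure D3:**
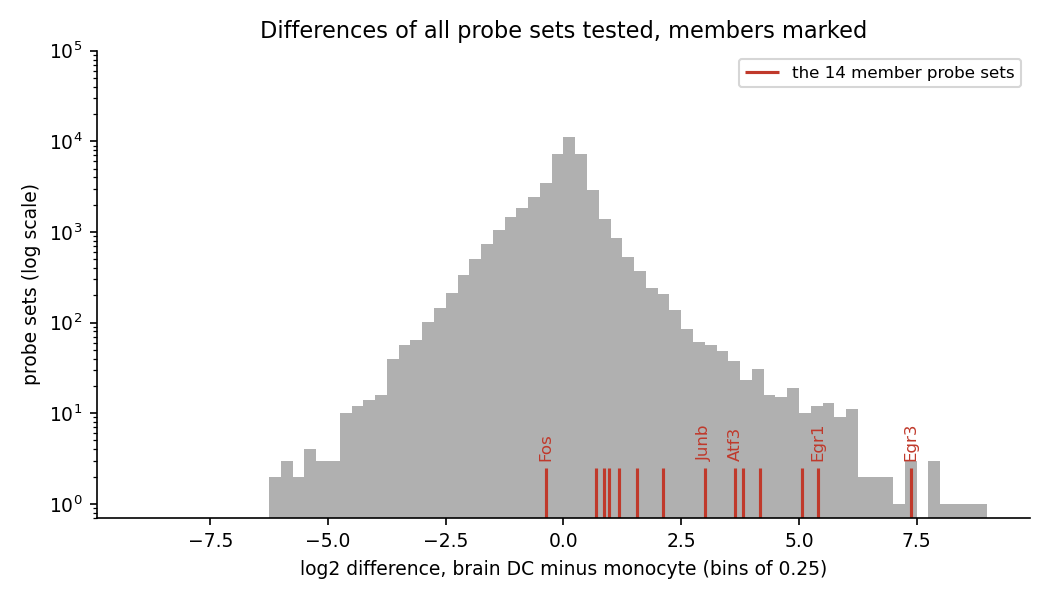
Number of probe sets (log scale) by log2 difference, brain DC minus monocyte, in bins of 0.25, for all 45037 tested, with the 14 members as red lines. The members run from -0.38 for Fos to 7.38 for Egr3, with a median of 2.55 where all probe sets have 0.06.

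The members' median SD over the 3 monocyte arrays was 0.33, against 0.17 over all probe sets, whereas in the 2 brain DC arrays both medians were 0.17. Monocyte replicate 3 was the lowest monocyte array for 11 of the 14 member probe sets, whereas it was lowest for 34.1% of all probe sets. It included Egr1, Fosb, both Egr2 and both Jun probe sets, Junb and Fos, and the exceptions were Egr3 by 1436329_at, Atf3 and Jund by 1449117_at. These genes were read from the same 3 libraries, so the count describes the libraries and has no test. Without that array 12 of the 14 were still called higher.

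**Figure D4:**
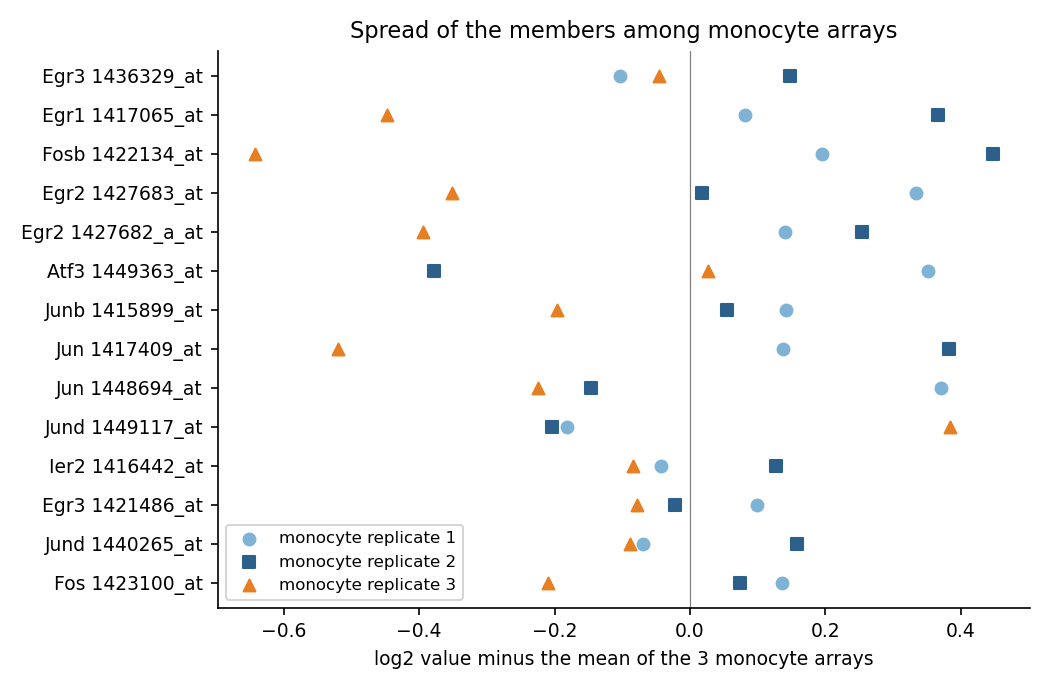
Value of each member in the 3 monocyte arrays minus their mean (x axis, log2), in the order of the differences. Replicate 3 (orange triangles) is the lowest in 11 of 14 rows.

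The probe sets of other genes closest to 4 members over the 5 arrays, by Euclidean distance among 34943 or 34944 probe sets, were as follows. Egr1 lay nearest to Basp1 (0.58), Havcr2 (0.96) and Ccnd1 (0.98), all called higher. Fosb lay nearest to Cd81 (0.71), Tent5c (0.82) and H2-Oa (0.86), which were also called higher. Jun by 1417409_at lay nearest to Rnf19b (0.36), Cd82 (0.39) and Tgif2 (0.44). Fos lay nearest to Gorasp2 (0.10), Atg4d (0.11) and Timm29 (0.12), none of them called. Distances used the same 5 array values as the calls, so a like call was built into the choice of neighbours. Among the members themselves the closest pair was Egr3 by 1421486_at and Jund by 1440265_at, at 0.53.

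The called probe sets of other immediate early genes went in the members' direction. This list was chosen with earlier results of these data known, so its counts are a description and not independent support. Of 46 probe sets of 20 genes, 30 were called higher, 0 lower and 16 not called, with a median of 1.26. Of all probe sets, 12.2% were called higher and 15.5% lower. A called probe set was present for 17 of the 20 genes, and Klf2, Klf4 and Sik1 had none. The NR4A orphan nuclear receptor genes led: Nr4a3 read 4.59 and 4.77 in brain DCs, against -2.01, -1.91 and -2.13 in monocytes by 1438796_at (6.69 ± 0.16), while its other 2 probe sets were not called. Nr4a2 reached 6.25 ± 0.19 by 1455034_at, with 5 of its 6 probe sets called. Ptgs2, which encodes the prostaglandin synthase COX-2, was higher by 6.24 ± 0.44 by 1417262_at, with monocytes at -1.30, -2.43 and -3.03, and by 1.26 ± 0.25 by 1417263_at. Csrnp1, a nuclear protein gene induced by several signals, was higher by 3.84 ± 0.21 by 1 of its 2 probe sets.

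Other AP-1 subunits went both ways. Their 30 probe sets (14 genes) split into 11 higher, 9 lower and 10 not called, and their median was 0.17. Over all probe sets, 12.2% were called higher and 15.5% lower. Jdp2, which encodes a repressor of AP-1, read 3.02 and 2.94 in brain DCs, against -0.68, -0.79 and -0.72 in monocytes (3.71 ± 0.15, limma adjusted p = 9.22e-06). A second Jdp2 probe set gave 0.56 ± 0.16. Maff, a small MAF protein gene, was higher by 3.53 ± 0.16, and Batf3, needed by cross-presenting dendritic cells, by 3.11 ± 0.20. Atf7, an ATF2 relative, was lower by 1 of its 2 probe sets (-2.12 ± 0.35).

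Of 6 probe sets for EGR relatives and the NAB corepressors, which bind EGR proteins and curb them, 1 was higher, 1 lower and 4 were not called, counts too small to read against the 12.2% and 15.5% of all probe sets called higher and lower. Nab2, itself a known EGR target, was at 0.09 and 0.24 in brain DCs, against -1.25, -1.03 and -0.76 in monocytes (1.18 ± 0.19, limma adjusted p = 0.00321). Nab1 was lower by 1 of its 3 probe sets (-0.63 ± 0.16, limma adjusted p = 0.0208), a call lost without any 1 of 4 arrays (brain DC replicates 1 and 2, monocyte replicates 1 and 3). Egr4, named after its values were seen, differed by 0.07 and was not called, unlike Egr1, Egr2 and Egr3. Signal over background is lost in these values, so whether its probe set detected Egr4 could not be checked.

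Kinases and factors upstream of immediate early genes included calls in both directions. Their 58 probe sets (20 genes) split into 4 higher, 15 lower and 39 not called, and their median was -0.09, where 12.2% of all probe sets were higher, 15.5% lower and the median 0.06. Crem, a CREB relative that also makes the repressor ICER, read 3.45 and 3.30 in brain DCs, against -0.29, -0.52 and -0.75 in monocytes (3.90 ± 0.18), and 2 of its 4 probe sets were called. Elk3, an SRF partner (-1.56 ± 0.21, with 3 of 4 probe sets lower), Mapk7, the kinase ERK5 (-1.27 ± 0.22), and Rps6ka5, the kinase MSK1 (-1.27 ± 0.18 by 1 of its 3 probe sets), were lower. The count of 4 higher probe sets was 2 when either brain DC replicate 2 or monocyte replicate 2 was left out.

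Of 14 probe sets in the list of AP-1 degradation and repression, 1 was higher and 5 were lower, with a median of -0.58. The shares over all probe sets were 12.2% higher and 15.5% lower. Itch (-1.21 ± 0.22, 2 of 4 probe sets lower) and Cop1 (-0.57 ± 0.17), which encode ubiquitin ligases that target JUN, were lower, as was Sfpq, better known as a splicing factor (-1.28 ± 0.20, 2 of 6 probe sets lower). The higher one was Per1, a clock gene that CREB induces (2.10 ± 0.43). The 5 lower probe sets were 2 without monocyte replicate 2 and 3 without monocyte replicate 1, monocyte replicate 3 or brain DC replicate 1.

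**Figure D5:**
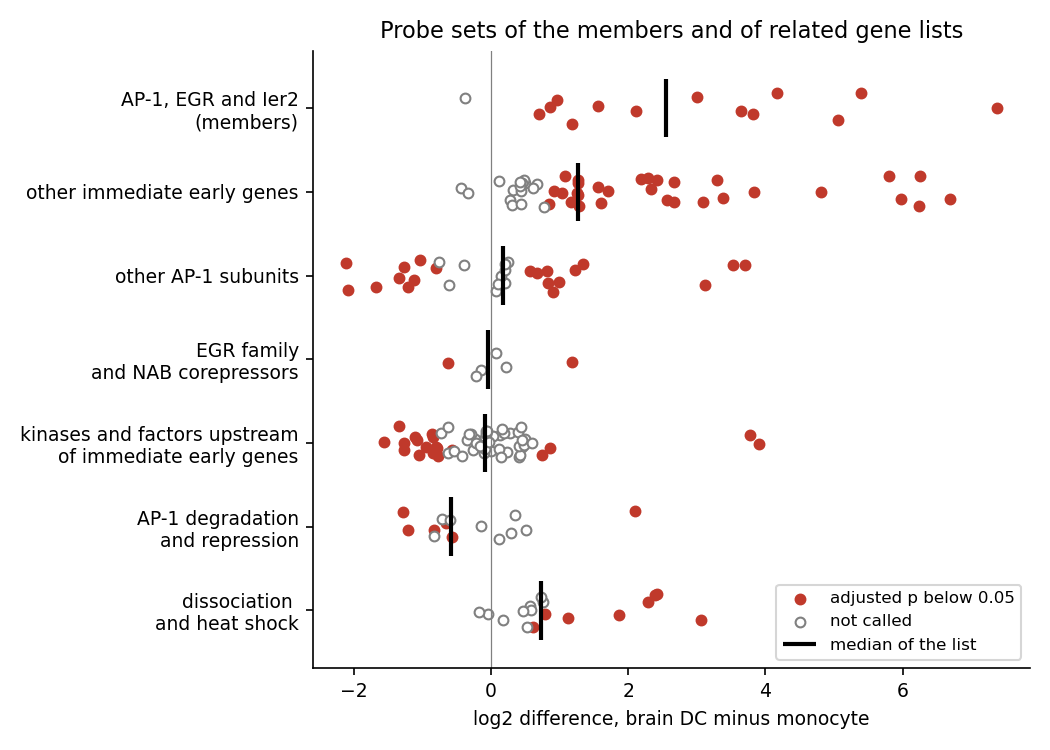
Log2 difference of every probe set, brain DC minus monocyte, in the members and 6 related lists (filled, adjusted p below 0.05; open, not called; black bar, median). The members (median 2.55) and other immediate early genes (1.26) lie mostly right of 0, while upstream kinases and factors (-0.09) spread around it.

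Several measures of the samples moved with the groups. The gate genes went with their sorts: Itgax (CD11c) was higher in brain DCs by 5.02 ± 0.22. Itgam (CD11b) was lower by the value -2.28 ± 0.43, and Csf1r (CD115) was between -1.73 and -0.95 by its 3 probe sets. Flt3, which is part of neither gate, was higher in brain DCs by 3.06 ± 0.25. Of dendritic cell marker probe sets 12 of 13 were higher, and of monocyte ones 10 of 12 were lower and 1, Cd14, higher. These counts and the heat shock counts stand beside 12.2% of all probe sets called higher and 15.5% lower. Heat shock genes, which also rise during dissociation, had 8 of 17 probe sets higher and 0 lower, with summed values of 3.71 to 3.74 in brain DCs and -18.2 to -11.1 in monocytes. Among them were Hspa1a (3.07 ± 0.18), Hspa1b (1.87 to 2.42 over 3 probe sets) and Dnajb1 (2.39 ± 0.15 by 1 of 2), of which Hspa1a and Hspa1b are near-identical and may share signal. Hsp90aa1 and Hspa8 each had called and uncalled probe sets, and Hsph1 was not called.

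Markers of other cell types were read against the 12.2% of all probe sets called higher. Microglial probe sets were higher in 4 and lower in 2 of 7 cases, with summed values of 5.75 to 7.05 in brain DCs and 2.29 to 3.42 in monocytes. Choroid plexus ones were higher in 6 of 9, with summed values of 28.4 to 29.2 in brain DCs and -2.97 to -1.96 in monocytes. Astrocyte markers were higher in 5 of 19 probe sets, oligodendrocyte ones higher in 6 and lower in 2 of 13, natural killer cell ones higher in 3 of 5, B cell ones higher in 2 of 3, and endothelial ones higher in 1 of 8, near that share. Neuronal (0 of 12) and T cell (0 of 5) probe sets were not called, and 2 of 4 neutrophil ones were lower. The largest difference was 8.76 in the choroid plexus list and 6.29 in the natural killer cell list, with 0 probe sets called lower in either. Centred values do not show which markers are at background. The part of these markers and of the heat shock genes in the AP-1 and EGR differences was not tested.

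RNA integrity controls also moved. The β-actin control probe set for the 5′ end read -0.15 and 0.24 in brain DCs, against -3.76, -3.80 and -1.37 in monocytes, while that for the 3′ end read -0.31 and -0.08 in brain DCs, against 0.23, 0.18 and 0.23 in monocytes. The 5′ end of Gapdh did likewise, with values of 0.12 and 0.41 in brain DCs, against -2.62, -2.70 and -2.28 in monocytes. Its 3′ values overlapped between the groups, at -0.22 and 0.19 in brain DCs, against 0.16, 0.16 and 0.00 in monocytes. Both 5′ control probe sets thus read lower in every monocyte array than in brain DCs, with β-actin least low in replicate 3. Where in its transcript each member probe set lies was not analysed here, and the part of this bias in the member differences, the 2 Egr3 values included, was not tested. Poly-A spike-ins, RNA added at labelling, were higher in both brain DC arrays for 25 of 27 probe sets, by a median of 2.53. Hybridisation controls were higher in both brain DC arrays for 18 of 18 probe sets, by a median of 1.04 (0.17 to 1.36). The part of these control shifts in the member differences was not tested.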

How the data were processed

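Affymetrix arrays measured total RNA of 5 samples, grouped by their titles. Per the submitters' processing notes, RMA produced the log2 values that the authors deposited. The sources used here do not give the version, each probe set's baseline or the log base, so log2 is inferred from RMA and from a widest range of 8.86 over the arrays. The array medians lay between -0.05 and 0.00, and no counts or dim-probe filter apply; the number of arrays limits precision. Of 45101 probe sets 64 controls were left out, and 34945 had 1 symbol, 932 several and 9160 none in the platform annotation. By Entrez identifier 34741 of the first matched RefSeq (GRCm38.p6), with 0 symbols changed.

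Values were fitted as deposited with limma 3.58.1 in R 4.3.3 (lmFit, eBayes, no covariates, 3 residual degrees of freedom), adjusted over 45037 probe sets. Of these, 12476 (27.7%) were called and 24952 (55.4%) had groups without overlap. On simulated data of 45037 probe sets with 200 changed, 9.60% of those changed by 1 and 90.6% of those changed by 2 were called. Of the calls, 4.56% were false. Far fewer probe sets were changed there than were called in the data, which makes the adjusted threshold stricter. The simulated rates therefore do not carry over to the data. Pairs of probe sets were compared by exact permutation. The alternatives were quantile normalisation, median centring, robust eBayes, single-symbol probe sets, gene means, no _s_at, _x_at or _a_at sets, a floor of 1 on the difference, a replicate block and leaving out each array. Members and lists were chosen with earlier results of these data known. Named genes were all members and up to 4 called genes per list with the largest differences. Gate genes, Flt3, heat shock genes and the 3 nearest probe sets of 4 members were also named. Of 69 listed pathway genes 63 were measured.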

Additional observations from a re-analysis of the deposited data

How the results depend on the processing

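Of the member probe sets' values under the alternatives, 149 kept their direction and side of the threshold, and 5 lost the call, all in Jund. The Egr3 difference by 1436329_at was 4.12 as the mean of both Egr3 probe sets, 6.48 after quantile normalisation and 7.23 to 7.53 under the other settings. Across all settings the Egr1 difference was 4.87 to 5.58, Fosb 4.73 to 5.29 and Fos -0.49 to -0.30 (limma adjusted p 0.0898 to 0.382). The 13 higher member probe sets were 11 to 13 with an array left out, and 0 were lower in any setting. Over all probe sets, 5517 higher and 6959 lower became 2759 and 4549 with a difference of at least 1, and 3068 and 3083 as gene means; with an array left out they were 3806 to 4774 and 5548 to 6250. With a difference of at least 1, upstream genes had 2 higher and 7 lower, AP-1 subunits 5 higher and EGR and NAB genes 0 lower. The list of AP-1 degradation and repression then had 2 lower. As gene means, which test fewer features, upstream genes had 8 lower, AP-1 subunits 7 higher and 3 lower, and other immediate early genes 17 higher. EGR and NAB genes had 0 lower as gene means, and the list of AP-1 degradation and repression 2 lower. Without _s_at, _x_at and _a_at sets, other immediate early genes had 19 higher of 32. With an array left out, the list of AP-1 degradation and repression had 2 to 4 lower, and EGR and NAB genes 0 to 1 lower. Upstream genes had 2 to 5 higher, and other immediate early genes 0 to 1 lower. The numbers pair no samples by label, and same-numbered arrays had correlations of 0.03 and 0.10 between their deviations. With the replicate block 12 member probe sets were higher, Jund by 1440265_at lost its call (0.65, limma adjusted p = 0.0516), EGR and NAB genes had 0 lower, and 4660 and 6793 of all probe sets were called higher and lower. For pairs of members, no direction changed. Depth does not apply, and signal over background is lost.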

Other observations

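Among monocyte arrays, replicate 1 stood apart from the others for some inducible genes. Dusp1, a phosphatase that switches off MAP kinases, read 0.97 and 1.21 in brain DCs, against -0.43, -1.98 and -2.32 in monocyte replicates 1, 2 and 3. Cd14, a lipopolysaccharide co-receptor, read 3.41 and 3.89 in brain DCs, against 2.12, 0.95 and 0.96 in monocytes. Among brain DC arrays, the microglial genes P2ry12 (3.18 and 2.06) and Sall1 by 1437983_at (2.36 and 1.01) were higher in replicate 1 than in replicate 2, with monocytes between -0.20 and 0.47. The genes in this paragraph were picked with their values in view.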
